A study of Mus musculus with 4 samples.

Results

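Cells of the developing mouse kidney that carried RNA of both Jag1, a ligand of the Notch receptors, and Lhx1, a transcription factor of the young nephron, are described here. A cell was taken when it held at least 2 unique molecular identifiers (UMIs, each standing for 1 captured RNA molecule) of Jag1, at least 1 of Lhx1 and at most 1 of Wnt4, and 0 of Ret, Wnt11, Nphs1 and Pecam1. The last 4 genes mark ureteric tips, podocytes and endothelium. Only cells with at least 500 detected genes and at most 20% mitochondrial UMIs were considered. The limits chose 451 of 16220 kept cells in 3 libraries: 131 of 3565 (embryonic day E15.5), 85 of 4563 (E17.5) and 235 of 8092 (newborn, P0). The series holds a further library and 22838 kept cells in all.

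The study profiled whole kidneys by droplet single-cell sequencing with 10x Chromium 3′ chemistry, under a title about stages of kidney maturation. E15.5 and P0 came from ICR mice and E17.5 from C57BL/6 mice, all with the genotype label wild type and no treatment named. Each age is 1 library, and the labels do not say how many animals went into it. Strain goes with E17.5 and cannot be told apart from age there. The fourth library, from E12.5 kidneys of C57BL/6N mice that had spent 12 days as grafts in a host, lies outside the limits' 3 ages and is given only as a flagged value.

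A nephron starts as a cap of Six2 and Cited1 progenitor cells beside a ureteric tip. Wnt4 drives these cells through a vesicle stage into a comma-shaped and then an S-shaped body, whose segments become podocytes, proximal tubule, and the loop of Henle with the distal tubule. Notch signalling works between touching cells: a ligand (Jag1, Dll1) on one cell triggers the cleavage of a receptor (Notch1, Notch2) on its neighbour, and the freed receptor domain joins the DNA-binding factor RBPJ to switch on Hes and Hey genes. Fringe enzymes such as Lfng modify the receptor and so its choice of ligand. In the mouse kidney Notch signals are known for their part in forming the proximal segments.

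The limits fixed the levels of 7 genes, so those are a description only. Levels are given as CPM, the UMIs of a gene per 1000000 UMIs summed over the cells of 1 kind in 1 library, in the order E15.5, E17.5 and P0. Jag1 (ENSMUSG00000027276, chr2:137081456-137116644 on the minus strand of GRCm38) stood at 115, 298 and 194 CPM and Lhx1 (ENSMUSG00000018698, chr11:84518284-84525535, minus strand) at 209, 254 and 144 CPM. Wnt4 (ENSMUSG00000036856, chr4:137277489-137299726, plus strand) was at 6.12, 21.4 and 12.3 CPM. A member carried a median of 4, 3 and 3 UMIs of Jag1. At the Jag1 limit, the 38, 38 and 85 members with exactly 2 Jag1 UMIs had 45.1, 71.8 and 20.7 CPM of Dll1, which the limits do not use. Cells that met the other limits but had exactly 1 had 23.6, 28.9 and 17.01 CPM. A gene with 3 UMIs over all members of a library stands at 0.612, 2.79 and 0.648 CPM, which is taken as the floor.

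The share of kept cells that met the limits was 3.67% [3.08, 4.35] for E15.5, 1.86% [1.49, 2.30] for E17.5 and 2.90% [2.55, 3.29] for P0. Brackets are exact 95% intervals throughout (Clopper-Pearson for shares, Poisson for levels, conditional binomial for ratios) and cover counting error only. Depth went with the shares: kept cells had median UMIs of 22734, 7261 and 9996.5, and members 31929, 11099 and 17748. Drawn down to 5000 UMIs per cell, which left out 197, 1127 and 1456 shallower cells, 1.07% [0.750, 1.48], 1.37% [1.01, 1.81] and 1.24% [0.984, 1.53] still met the limits. At equal depth the 3 shares had overlapping intervals, and the order seen at full depth was not kept.

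The label S-shaped body held only in part. Progenitor genes were low in members, with Six2 at 3.88, 3.72 and 0.864 CPM against 267, 378 and 248 in cells chosen by Six2 and Cited1. Pax8, an early nephron factor, was at 116, 184 and 123 CPM and the epithelial adhesion gene Epcam at 240.4, 359 and 473 CPM, against 0 CPM of Epcam in stromal cells, whose choice required its absence. Many members also carried genes of working tubule: 38 of 131 (29.0%), 9 of 85 (10.6%) and 74 of 235 (31.5%) held at least 5 UMIs of Lrp2, Cubn, Slc12a1, Umod or Slc12a3. Lrp2, the endocytic receptor megalin of the proximal tubule, gave most of these, with 33, 8 and 43 cells. A fixed limit of 5 UMIs is met more easily in deeper cells, and members of E17.5 were the shallowest. No share at equal depth or in other kinds of cell is given, so the 3 shares are not compared. Since such cells were found at each age, the members are called Jag1 Lhx1 cells here. Of the 3 genes given as markers, Jag1 and Lhx1 chose the cells, and Dll1, the third, is described next.

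Markers of stroma, endothelium and leukocytes were few, while ureteric genes stood above their level in progenitors and stroma. The 6 ureteric genes summed to 153, 159.9 and 134 CPM, with Hoxb7 the highest in each library. Cells chosen by high Wnt4 had 148, 177 and 112 CPM. Six2 Cited1 cells had 54.4, 45.1 and 27.6 CPM and stromal cells 22.4, 29.3 and 15.6. No ureteric cells were set beside them. The 8 stromal genes summed to 77.96, 15.8 and 16.6 CPM, against 3412, 5236 and 3598 in stromal cells. Among 6 endothelial genes only Egfl7 reached 10 CPM, and 5 leukocyte genes summed to 13.9, 2.79 and 7.13 CPM. Globin and Alas2 UMIs summed to 1968, 7.44 and 10.8 CPM, and 1 cell gave 65.5% of those at E15.5, without which the sum was 683 CPM. Of the members, 3, 4 and 15 scored as likely doublets and were kept. Pairs of libraries shared 19 to 69 kept barcodes, and 0 barcodes of members. UMIs of tdTomato, a reporter, were found in the P0 library only, 173 in 96 members, although its genotype label is wild type.

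Dll1, the second Notch ligand of the young nephron, is not part of the limits and was clearly counted in members at each age. Dll1 (ENSMUSG00000014773, chr17:15367354-15376872, minus strand) stood at 67.3 [60.3, 75.0], 85.5 [69.0, 105] and 32.4 [27.4, 38.0] CPM in members. Cells chosen by at least 2 UMIs of Wnt4, 1 or more of Lhx1 and the same 4 genes at 0 (Wnt4-high cells; 243, 303 and 618) had 65.8, 74.9 and 42.8 CPM. Six2 Cited1 progenitors (370, 222 and 79 cells) had 2.67, 1.82 and 3.804 CPM and stromal cells (718, 256 and 334) 2.38, 0.637 and 1.45 CPM. Dll1 was thus higher in members and Wnt4-high cells than in progenitors and stroma at each age, with the cells just outside the Jag1 limit between them. Dll3, Dll4 and Jag2 lay at or under 2.8 CPM in members, and Dlk1, a related membrane protein, at 13.1, 3.72 and 2.38 CPM.

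A Dll1 UMI was found in 55.7%, 41.2% and 26.8% of members, against 3.48%, 0.391% and 0.898% of stromal cells, whose UMIs were fewer (medians 18775, 5569 and 7589.5). At 5000 UMIs per cell the shares were 50%, 40.4% and 18.3% of members and 0.286%, 0% and 0.948% of stromal cells. In both readings the P0 library had the lowest share and lay far above its stromal background. Its CPM was 2.08-fold [1.71, 2.54] lower at P0 than at E15.5.

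Notch1 and Notch2 were present in each library, and Notch2 was highest at E17.5. Notch1 was at 65.9, 80.0 and 56.2 CPM in members and 85.1, 101 and 97.0 CPM in Wnt4-high cells, and Notch2 at 41.8, 82.8 and 47.1 CPM in members and 51.4, 76.0 and 59.2 in Wnt4-high cells. Notch3 reached 17.6, 14.9 and 11.4 CPM, and Notch4 stayed at or under 4.3 CPM. Lfng (ENSMUSG00000029570, chr5:140607320-140615545, plus strand) was the highest of the pathway's enzymes in members, at 74.1 [66.7, 82.1], 83.7 [67.3, 103] and 52.1 [45.7, 59.1] CPM against 115, 121 and 93.9 in Wnt4-high cells and 10.8, 6.83 and 9.51 in progenitors. Its relative Mfng was at 0.612, 0 and 1.08 CPM and Rfng at 21.4, 14.9 and 13.4 CPM. Rbpj, the DNA-binding partner, was at 30.2, 54.9 and 33.7 CPM and did not stand above progenitors (53.4, 76.5 and 52.3 CPM).

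Among the targets, Hes5 (ENSMUSG00000048001, chr4:154960923-154962371, plus strand) was at 28.8 [24.2, 33.9], 22.3 [14.3, 33.2] and 9.50 [6.91, 12.8] CPM in members, with 47.6, 32.8 and 22.8 in Wnt4-high cells and at most 1.8 CPM in progenitors and stroma. Nrarp, a feedback inhibitor of Notch, was at 81.4, 62.3 and 39.3 CPM in members and 77.7, 90.4 and 71.0 in Wnt4-high cells. Hey1 was at 41.0, 56.7 and 53.3 CPM in members against 101, 150.1 and 251 in Wnt4-high cells, and Heyl at 21.2, 21.4 and 18.6 against 65.2, 51.2 and 52.5. Hey1 was thus higher in Wnt4-high cells in each library, by 2.47 [2.12, 2.89], 2.65 [2.03, 3.505] and 4.70 [4.12, 5.37]-fold. Hes1 was high in every kind of cell, at 363, 422 and 859 CPM in members and 247, 307 and 763 in stroma.

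**Figure D1:**
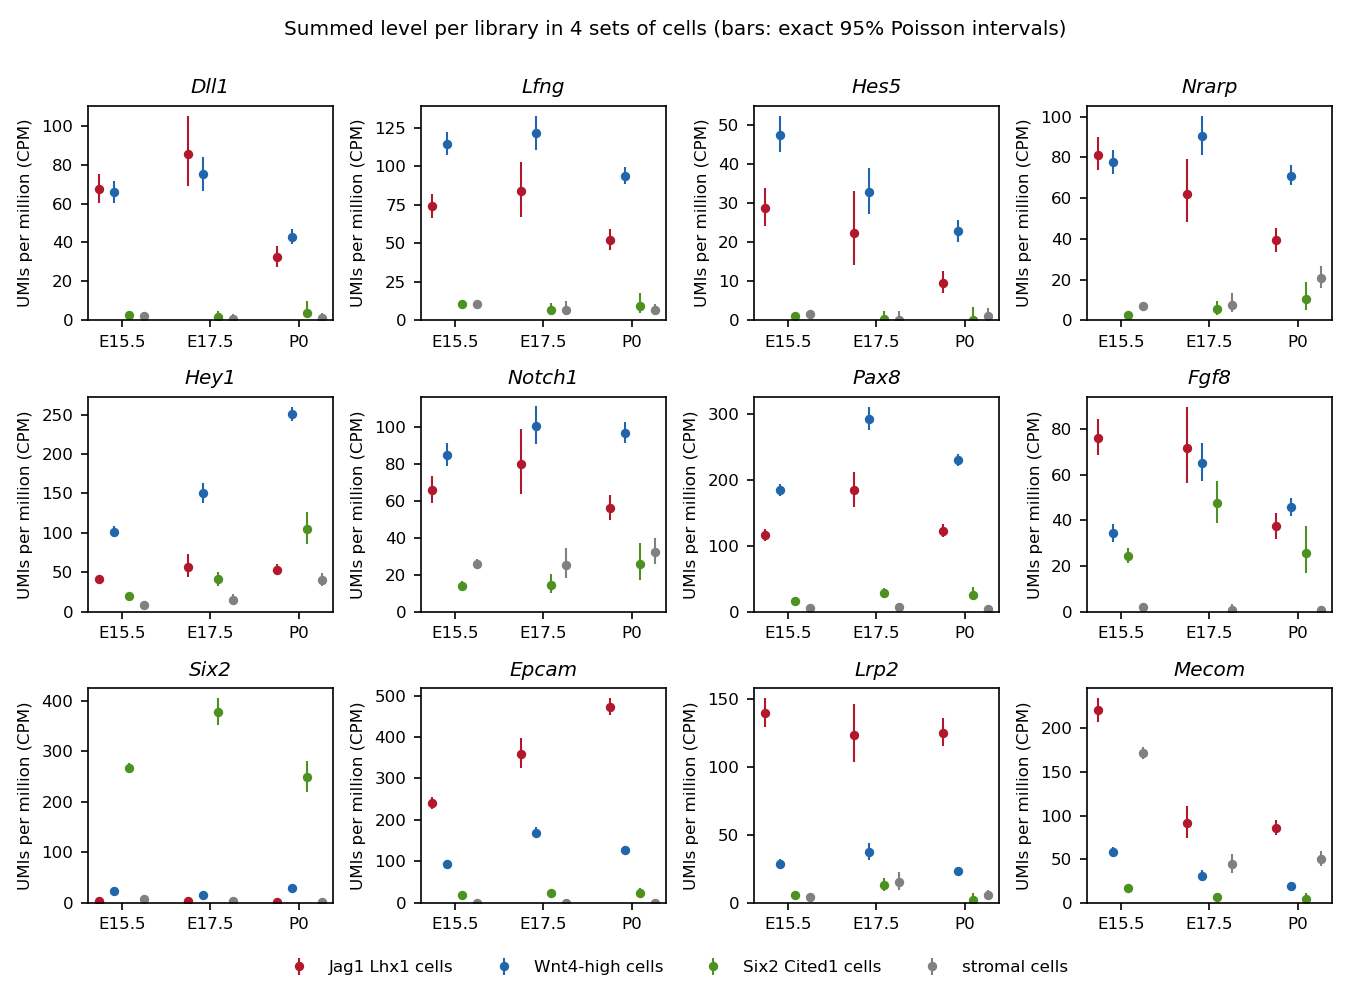
Levels in CPM (y axis, linear from 0) of 12 genes by library (x axis) in Jag1 Lhx1 cells, Wnt4-high cells, Six2 Cited1 cells and stromal cells. Points are summed levels of 1 library and bars exact 95% Poisson intervals. Dll1, Lfng, Hes5 and Nrarp are counted mainly in the first 2 kinds of cell, Epcam, Lrp2 and Mecom are higher in Jag1 Lhx1 cells than in Wnt4-high cells, and Mecom is also present in stroma.

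Hes5 and Lfng, 2 genes whose levels went with Dll1 in the embryonic libraries and whose promoters hold the RBPJ core motif, are shown by sequence. The levels given below do not use the motif. The motif searched was GTGGGAA on either strand (TTCCCAC read from the other strand), in capitals, within the 250 bases before the transcript start in RefSeq (GRCm38.p6). The Hes5 stretch is chr4:154960673-154960922 and the Lfng stretch chr5:140607091-140607319, both on the plus strand, 5′ to 3′. The Lfng stretch ends where the GENCODE M21 gene starts.
Hes5: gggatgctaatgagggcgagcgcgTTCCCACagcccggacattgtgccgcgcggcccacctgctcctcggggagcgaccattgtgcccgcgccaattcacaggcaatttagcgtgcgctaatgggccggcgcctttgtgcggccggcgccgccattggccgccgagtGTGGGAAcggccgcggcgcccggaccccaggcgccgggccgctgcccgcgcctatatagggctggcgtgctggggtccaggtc
Lfng: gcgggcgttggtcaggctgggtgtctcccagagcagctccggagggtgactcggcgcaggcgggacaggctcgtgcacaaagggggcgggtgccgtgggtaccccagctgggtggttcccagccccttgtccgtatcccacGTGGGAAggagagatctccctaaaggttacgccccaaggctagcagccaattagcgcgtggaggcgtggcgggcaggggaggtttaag
Hes5 held 2 matches, starting 226 and 83 bases before its start, and Lfng 1, starting 88 bases before the end of the stretch shown and 109 before its RefSeq start, since the last 21 bases of that window lie inside the GENCODE gene and are not shown. Of 32851 windows of 250 bases in the table, 1779 (5.42%) held a match and 53 (0.161%) more than 1. Of 30 genes on the Notch lists 23 matched the table, and 3 of these held the motif (Hes5, Lfng and Hey2). Counted by window, as for the whole table, 3 of 28 (10.7%) held it. Nrarp held none in its window. Hes1, Hey1 and Heyl are not among the matched genes. A match describes letters and is not a binding site.

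Within the members, cells with a Dll1 UMI differed from those without in several Notch genes and in other genes. The 73, 35 and 63 cells with Dll1 were about as deep as the 58, 50 and 172 without (median UMIs 31028, 10132 and 18608 against 33690.5, 11577 and 17230). Lfng stood at 116 against 18.9 CPM at E15.5, 181 against 25.3 at E17.5 and 90.8 against 36.8 at P0. The ratios were 6.13 [4.40, 8.74], 7.17 [4.19, 13.0] and 2.47 [1.90, 3.21], so each interval lay above 1. Several dissociation genes were lower in cells with Dll1, such as Btg2 with ratios of 0.504 [0.368, 0.686], 0.506 [0.411, 0.620] and 0.662 [0.609, 0.719] and Egr1 with 0.755 [0.657, 0.868], 0.596 [0.463, 0.762] and 0.639 [0.561, 0.727]. At E15.5 the globin Hba-a1 was at 1363 against 219 CPM, and the globin-rich cell noted above is among those with Dll1. The part of these genes in the differences was not tested. This choice of cells was made after Dll1 had been seen in the data, and the cells of 1 library are not replicates.

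Nrarp was higher in cells with Dll1 by 4.85 [3.63, 6.59]-, 2.99 [1.78, 5.15]- and 2.27 [1.68, 3.07]-fold, and Hey1 by 3.05 [2.15, 4.43]-, 1.84 [1.08, 3.16]- and 1.75 [1.35, 2.27]-fold. Hes5 was higher by 4.59 [2.85, 7.78]- and 3.34 [1.35, 9.01]-fold in the embryonic libraries, while its ratio at P0 was 0.950 [0.446, 1.90], from 44 UMIs. Notch1 was higher by 1.69 [1.33, 2.16]-, 2.11 [1.35, 3.32]- and 1.64 [1.26, 2.11]-fold. Some genes outside the Notch lists were higher too, with each interval above 1, while others, given below, were lower. Uncx had ratios of 1.34, 1.97 and 2.08 and Cdh6 of 2.96, 2.09 and 1.41. The share of all genes that differed in this way is not given. The ratios of the Notch genes are therefore not read as particular to the pathway. Hes1 showed ratios of 0.926 [0.842, 1.02], 1.03 [0.846, 1.25] and 1.07 [0.996, 1.14]. Of the distal lists, Tfap2b and Mecom were lower in the cells with Dll1 in each library. Tfap2b stood at 49.2 against 268, 2.48 against 86.2 and 15.3 against 52.1 CPM, and Mecom at 98.7 against 381, 42.2 against 120.4 and 48.8 against 101 CPM. Tmem52b, Slc12a1 and Wfdc2 were lower too, while others were not lower in each library: Irx1 had ratios of 1.61 [1.31, 1.98], 0.883 [0.604, 1.28] and 0.679 [0.575, 0.799], Irx3 of 1.27 [0.987, 1.64], 1.51 [0.948, 2.40] and 1.33 [1.01, 1.73], and Calb1 reached 7.18 [4.12, 13.1] at P0.

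**Figure D2:**
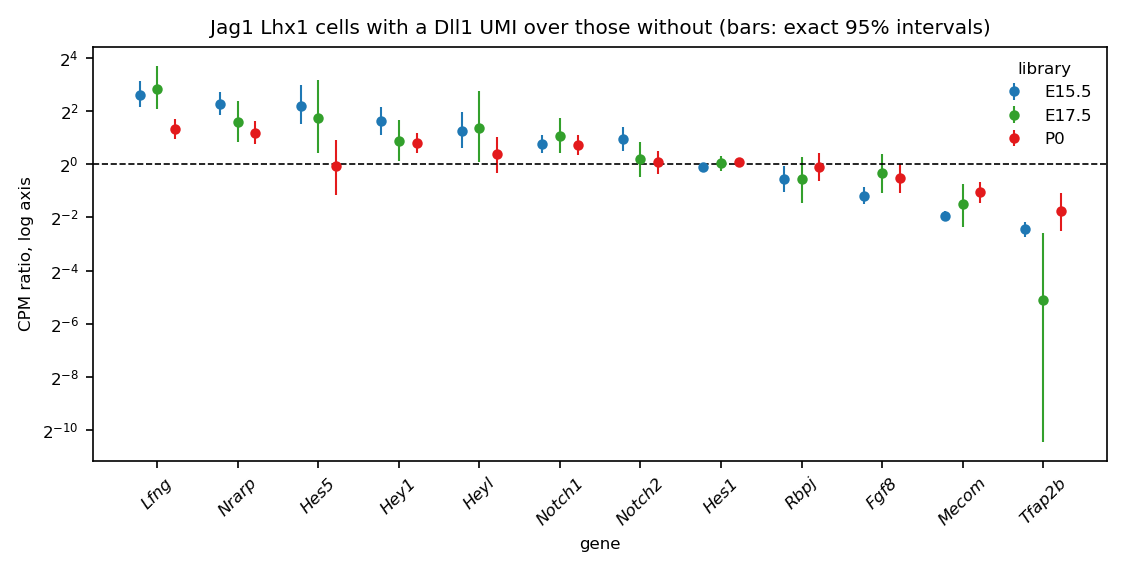
Ratio of CPM (y axis, log scale) in Jag1 Lhx1 cells with a Dll1 UMI over those without, for 12 genes (x axis) and 3 libraries (colours). Points are ratios within 1 library, bars exact 95% intervals, and the dashed line is 1. Lfng, Nrarp, Hey1 and Notch1 lie above 1 in each library and Mecom and Tfap2b below, while Hes5 lies above 1 at E15.5 and E17.5 only.

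Members were then sorted by 3 short lists of segment factors. For each cell the UMIs of 4 podocyte genes (among them Wt1, Podxl and Foxc2), of 4 proximal genes (among them Osr2, Cdh6 and Hnf4a) and of the distal genes Irx1, Irx2, Pou3f3, Mecom, Tfap2b and Lgr5 were each set against their share in all members of the library. The list with the highest value led a cell when it held at least 2 UMIs and 1.5 times the next list's value. The distal list led in 59 (45.04% [36.3, 54.0]), 27 (31.8% [22.1, 42.8]) and 97 (41.3% [34.9, 47.9]) of the cells. The proximal list led in 53 (40.5% [32.0, 49.4]), 31 (36.5% [26.3, 47.6]) and 82 (34.9% [28.8, 41.4]), the podocyte list in 8 (6.11% [2.67, 11.7]), 9 (10.6% [4.96, 19.2]) and 20 (8.51% [5.28, 12.8]), and no list in 11 (8.40% [4.27, 14.5]), 18 (21.2% [13.1, 31.4]) and 36 (15.3% [11.0, 20.6]). Proximal and distal sets were thus the largest at each age. The limits had left out cells with a UMI of the podocyte gene Nphs1, so the podocyte share holds only for the cells that remained. These sets are ranges of a score, with 6, 7 and 25 members between 1.2 and 1.8 times the next list.

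**Figure D3:**
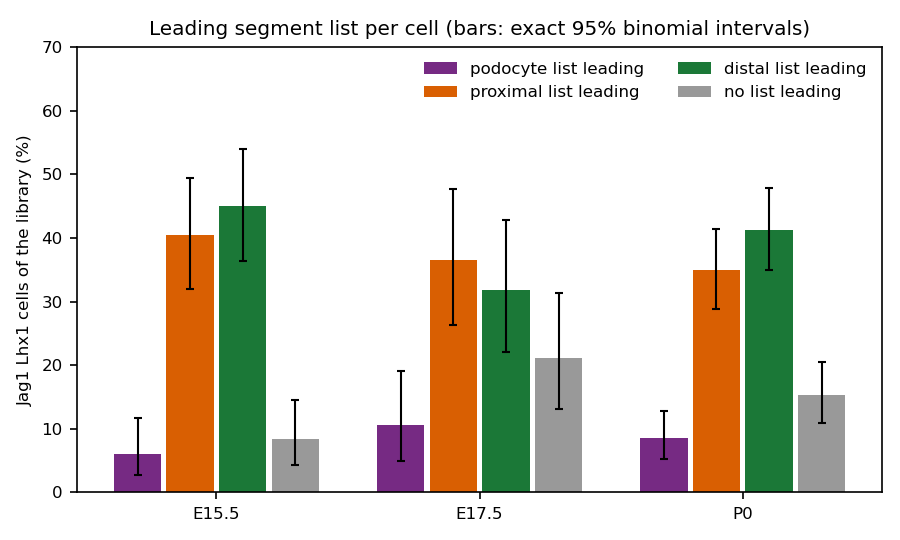
Share of Jag1 Lhx1 cells in percent (y axis, from 0) in which the podocyte, proximal, distal or no list led (colours), by library (x axis). Bars are shares of 131, 85 and 235 cells and whiskers exact 95% binomial intervals. The podocyte set is the smallest of the 3 named sets in each library, after the limits had left out cells with the podocyte gene Nphs1.

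Genes outside the assigning lists were read in each set, since those inside had chosen it, although all came from the same cells. The 11 other podocyte genes summed to 1747, 891 and 1229 CPM in the podocyte set, against 89.3, 142 and 102 in the proximal and 99.7, 167 and 138 in the distal set. Cldn5, a tight junction claudin, was at 784, 485 and 795 CPM, and Tcf21, a podocyte and stromal factor, at 689.7, 139 and 169. Synpo, an actin-binding gene of mature podocytes, was at 0, 0 and 7.68 CPM. With only 8, 9 and 20 cells, this set has the widest errors.

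The podocyte set also stood apart in Notch and growth genes. Notch2 was at 223, 238 and 165 CPM there, against 41.7, 47.2 and 53.4 in the proximal and 27.3, 44.9 and 31.1 in the distal set. Hey1 was at 189, 99.0 and 269 CPM, against 46.7, 58.4 and 43.0 in the proximal and 21.4, 42.4 and 42.0 in the distal set. Pax8 was at 422, 337 and 361 and the cell cycle inhibitor Cdkn1c at 551, 584 and 614 CPM, each above both other named sets in the 3 libraries. Dll1 was low, at 19.8, 9.90 and 15.4 CPM, and Fgf8 was listed at 0 in each library.

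In the proximal set the 11 other proximal genes summed to 1514, 1062 and 1486 CPM, against 68.7, 262 and 163 in the distal and 89.3, 366 and 104 in the podocyte set. Cells with no leading list had 259.8, 1145 and 1482 CPM of these genes, close to the proximal set at E17.5 and P0. Lrp2 was at 285, 164 and 227 CPM and Pdzk1, a scaffold of apical transporters, at 341, 275 and 394. Amn, the partner of the receptor cubilin, was at 145, 142 and 158 CPM and the zinc transporter Slc39a5 at 136, 117 and 148. Dll1 was at 89.7, 164 and 52.2 CPM here, against 27.3, 17.5 and 18.7 in the distal set, and Lfng at 114, 175.1 and 99.9 against 15.0, 15.0 and 17.1. Both were thus higher in the proximal than in the distal set at each age. Ccnd1, a cyclin of young nephron cells, ran the other way, at 162, 225 and 95.9 against 729.8, 739 and 754 CPM.

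The same comparison was made inside the proximal set, where 38, 19 and 30 cells had Dll1 and 15, 12 and 52 did not. There Lfng was higher in cells with Dll1 by 7.42 [4.07, 15.1]-, 3.88 [1.84, 9.43]- and 2.29 [1.68, 3.15]-fold. Nrarp was higher by 8.18 [4.50, 16.6]- and 2.61 [1.64, 4.23]-fold at E15.5 and P0, and its E17.5 ratio was 2.18 [0.924, 5.92]. Hey1 was higher by 3.56 [1.797, 8.02]-fold at E15.5, and its ratios of 2.40 [0.782, 9.79] at E17.5 and 1.49 [0.923, 2.41] at P0 had intervals that held 1. Hes5 had 51 UMIs in proximal cells with Dll1 and 0 in those without at E15.5, and 6 and 14 UMIs at P0. In the distal set the Lfng ratios were 2.61 [1.24, 5.62] at E15.5 and 1.24 [0.509, 2.77] at P0, so at P0 no difference was detectable there. Nrarp was higher in distal cells with Dll1 by 2.07 [1.31, 3.28]-fold at E15.5 and 3.03 [1.59, 5.72]-fold at P0. Hes5 was higher in distal cells with Dll1 by 3.94 [2.25, 7.10]-fold at E15.5, and its P0 ratio was 1.11 [0.314, 3.20]. Hey1 was higher in them by 4.10 [2.16, 8.14]-fold at E15.5 and 1.66 [1.004, 2.68]-fold at P0. At E17.5 only 4 distal cells had Dll1, with 4 UMIs of Lfng against 2 in the 23 without. The counts were 5 against 11 for Nrarp, 6 against 7 for Hes5 and 2 against 15 for Hey1.

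In the distal set the 12 other distal genes summed to 2486, 1473 and 1568 CPM, against 333, 519.7 and 336 in the proximal set. Wfdc2 was at 1162, 826 and 872 CPM and Sox9, a growth regulator of progenitor epithelia, at 139, 105 and 106. Fgf8, a growth factor that young nephrons need, was at 165, 162 and 85.1 CPM, against 2.24, 2.78 and 0 in the proximal set. Cells with no leading list had 22.0, 51.4 and 12.8 CPM of it, so the distal set was highest in each library. The connecting tubule factor Gata3 was at 84.7, 30.0 and 27.5 and Tmem52b at 514, 67.4 and 65.4 CPM. Genes of the thick ascending limb were highest in the newborn library: the salt transporter Slc12a1 at 22.3, 19.97 and 158 and uromodulin, Umod, at 4.55, 22.5 and 125 CPM.

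Cells with no leading list did not keep 1 profile across ages. At E15.5 their 11 cells all had a Dll1 UMI, with Dll1 at 241 CPM, Hes5 at 106 and Lrp2 at 11.0. At P0 their 36 cells had Dll1 at 27.1 CPM, Hes5 at 2.85 and Lrp2 at 207. Their proximal and distal assigning lists were both present, at 359, 607 and 572 and 596, 458 and 542 CPM. The cell with most of the globin UMIs belonged to this set at E15.5.

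**Figure D4:**
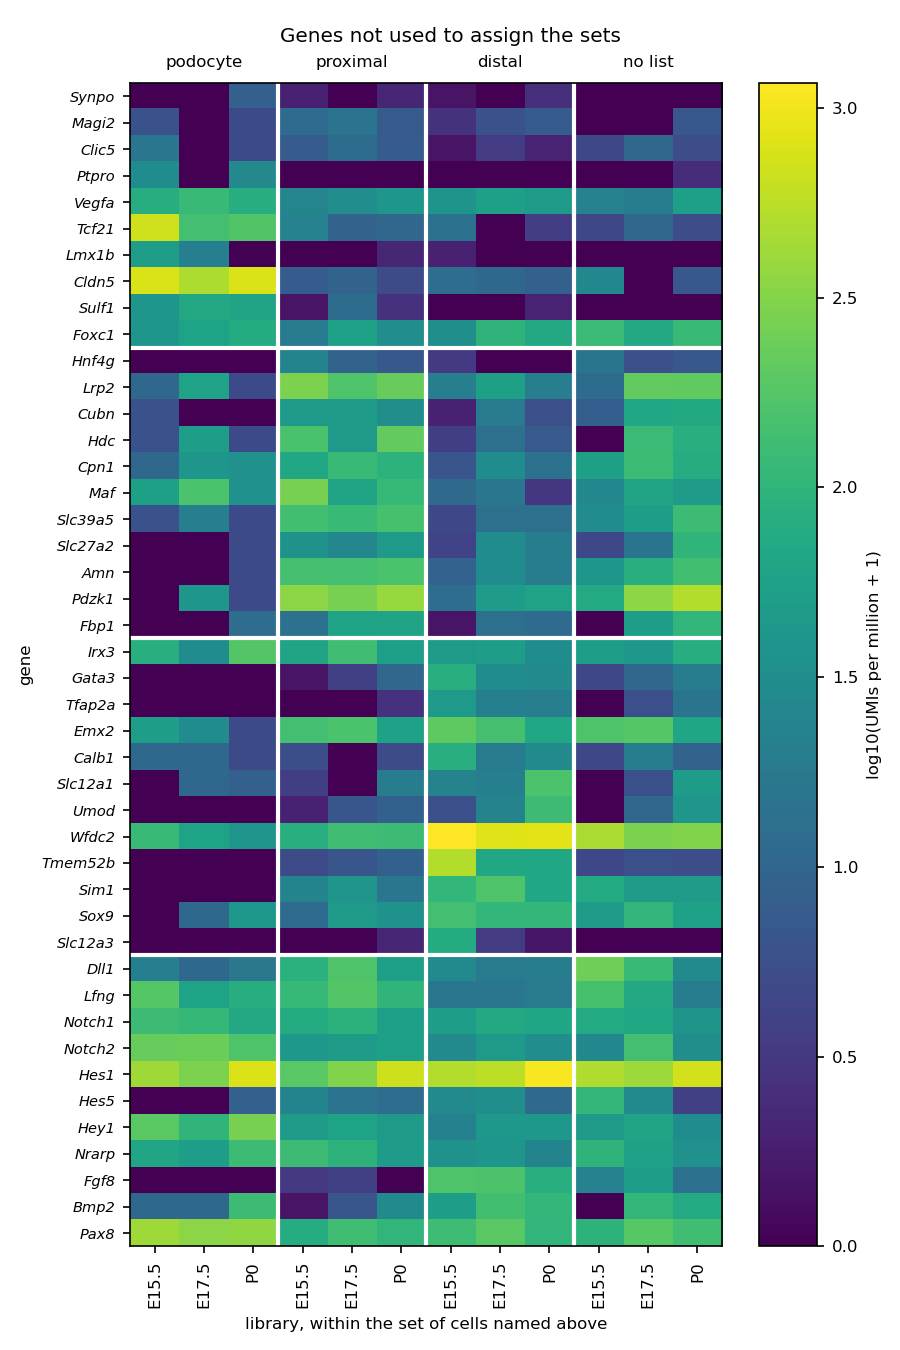
Levels as log10(CPM + 1) (colour) of genes not used to assign the sets (y axis), for each set and library (x axis). The upper 3 blocks of rows hold genes of the other podocyte, proximal and distal lists, and the lowest block holds Notch and early nephron genes. The summed level of each upper block is higher in its own set than in the other 2 named sets, Dll1 is brightest in the proximal and no-list sets, and Fgf8 in the distal set.

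Members were next set against Wnt4-high cells, rich in the early nephron gene Wnt4 and of similar depth (median UMIs 32374, 11470 and 16971.5). The limits separate these kinds by Wnt4, and only members had to hold Jag1, so the values are a description. A gene counted as past 2-fold when the interval bound nearest 1 lay beyond 2-fold. Of 8097 genes with at least 50 UMIs over both kinds in each library, 95 (1.17%) were higher in members past 2-fold in 3 of 3 libraries and 24 (0.296%) were lower. Without the E17.5 library, which had the fewest UMIs, 254 were higher and 86 lower. There a gene had to pass in fewer libraries, and the limit of 50 UMIs no longer used E17.5. The number of genes tested that way is not given, so these counts cannot be set against the 95 and 24.

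Spink1, a trypsin inhibitor, was at 199, 290.1 and 478 CPM in members against 23.3, 30.5 and 37.1 in Wnt4-high cells, 8.55 [7.34, 10.0], 9.52 [7.68, 11.9] and 12.9 [11.6, 14.3]-fold higher. Ly6a was 9.59 [8.65, 10.7], 8.11 [6.94, 9.51] and 9.88 [9.16, 10.7]-fold higher. Mep1a, a brush border protease, was at 67.6, 93.9 and 123 against 7.44, 5.17 and 9.29 CPM, 9.08 [6.93, 12.1], 18.2 [11.2, 31.01] and 13.2 [10.7, 16.4]-fold. Sostdc1, a secreted antagonist of BMP and Wnt signals, was 7.39 [6.32, 8.67], 9.90 [7.52, 13.1] and 16.1 [14.1, 18.4]-fold higher. Fxyd2, the gamma subunit of the sodium pump, was at 667, 704 and 756 CPM against 86.3, 117 and 125. Tmem174, Pdzk1, Sult1d1, Fabp3 and Hao2 completed the 10 highest, with ratios between 6.33 and 14.2. Sult1d1 is a sulfotransferase, Fabp3 a fatty acid carrier and Hao2 a peroxisomal oxidase.

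Tmem100 and Npy, both on the early nephron list, led the 10 lowest. Tmem100 was at 6.12, 3.72 and 4.10 CPM in members against 56.2, 70.8 and 52.3 in Wnt4-high cells. Npy, a neuropeptide, was at 5.31, 8.37 and 20.3 against 57.9, 79.6 and 172, 10.9, 9.51 and 8.46-fold lower. The growth regulators Mycn and Ccnd2 were 6.83, 5.48 and 4.64-fold and 3.47, 3.75 and 3.94-fold lower. Rnase12, Pmp22, Clmp, Lama4 and Pdzd2 were also among the 10. In Clmp the E17.5 members held 1 UMI.

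By list, 5 of 7 tested proximal genes outside the assigning list were past 2-fold higher in 3 of 3 libraries (Lrp2, Pdzk1, Hdc, Slc39a5 and Amn), and 5 of 6 distal assigning genes (Irx1, Irx2, Pou3f3, Mecom and Tfap2b). The median log2 ratios of those proximal genes were 2.28, 1.79 and 2.49, against -0.023, 0.0058 and 0.020 over all genes tested. Of 16 adhesion genes, 3 were past 2-fold higher: the cadherin Cdh1 and the claudins Cldn6 and Cldn7. Over all 8097 genes, 2403 were lower in members in each library. Of 10 early nephron genes 9 were, 2 of them past 2-fold (Npy and Tmem100). Fgf8 was the other one, with ratios of 2.22 [1.90, 2.59], 1.10 [0.841, 1.42] and 0.815 [0.682, 0.969]. Of 5 Notch targets, Hey1 alone was past 2-fold lower in 3 of 3. Of 18 cell cycle genes 14 were lower in each library, and Ccnd2 past 2-fold.

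Between ages, members of the P0 library were set against those of E15.5, the 2 ICR libraries. Of 9844 genes with at least 50 UMIs over both, 324 (3.29%) were past 2-fold higher at P0 and 130 (1.32%) past 2-fold lower, and the median log2 ratio was -0.058. Ratios lay below 1 for 5350 of the 9844, against which the counts of lower genes below are to be read. With 1 library an age, differences between animals or preparations cannot be told apart from age, and no test was made. A change of level within a cell and a change in which cells met the limits cannot be told apart either. For 373 of the 454 genes (82.2%) the E17.5 level lay between those of E15.5 and P0, though that library is of another strain. These genes were chosen for E15.5 and P0 levels far apart, which makes a level between them more likely. The share over all 9844 genes is not given, so no graded course with age is read from it.

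Among Notch genes 3 were past 2-fold between ages: Dlk1, Hes5 and Hes1. Of the ligand list only Dll1 and Dlk1 had 50 UMIs, and Dlk1 was past 2-fold lower at P0 (5.498-fold [2.88, 11.6]). Of 6 targets, Hes5 was past 2-fold lower (3.03-fold [2.14, 4.35]) and Hes1 past 2-fold higher (2.36-fold [2.23, 2.501]), and the median log2 ratio was -0.62. At 5000 UMIs per cell only Hes1 and Hey1 could be compared, with a median of 1.23. Nrarp was 2.07-fold [1.73, 2.48] lower and Hey1 1.30-fold [1.08, 1.57] higher, neither past 2-fold. Of 3 receptors and 11 other pathway genes none was past 2-fold, with Lfng 1.42-fold [1.21, 1.68] lower and the coactivator Maml2 2.09-fold [1.54, 2.84] higher. In stroma of the same libraries Hes1 was at 247 and 763 CPM, and whether its difference in members has the same source was not tested.

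Among distal genes, Umod and Slc12a1 of the loop of Henle were past 2-fold higher at P0, and Slc12a3, Tmem52b, Emx2 and Calb1 past 2-fold lower. Of the 12 outside the assigning list 10 had ratios below 1, with Sox9 (-0.03) and Irx3 (-0.01) near 0, and the median was -0.75. Umod was at 60.9 CPM at P0 against 2.45 at E15.5 (24.9-fold [14.0, 48.7]) and Slc12a1 at 80.8 CPM at P0 against 11.2 at E15.5 (7.20-fold [5.41, 9.73]). At E15.5, 49.1% of the Slc12a1 UMIs came from 1 cell, and at 5000 UMIs per cell, with 5 and 11 UMIs left, its log2 ratio was -0.12. Tmem52b was at 30.9 CPM at P0 against 232 at E15.5 (7.53-fold [6.32, 9.02] lower), Emx2 2.79-fold [2.43, 3.21] and the calcium binder Calb1 2.77-fold [2.09, 3.69] lower. Slc12a3, the salt transporter of the distal convoluted tubule, was at 0.648 CPM at P0 against 34.3 at E15.5, but 1 cell gave 62.5% of its E15.5 UMIs, and at 5000 UMIs per cell 0 and 3 UMIs were left.

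Of the 6 distal assigning genes, Tfap2b (3.44-fold [2.93, 4.06]) and Mecom (2.57-fold [2.29, 2.89]) were past 2-fold lower at P0. Irx1 and Irx2, factors of the intermediate segment, were 2.15-fold [1.92, 2.42] and 1.98-fold [1.67, 2.35] higher and did not pass 2-fold. Of 11 other proximal genes Fbp1, a gluconeogenic enzyme, was past 2-fold higher, at 43.6 CPM at P0 against 6.12 at E15.5. The factors Maf (2.53-fold [2.18, 2.94]) and Hnf4g (4.05-fold [2.24, 7.85]) were past 2-fold lower. The proximal median was 0.30. Of 5 tested podocyte genes outside the assigning list Tcf21 was past 2-fold lower, and the assigning genes of podocyte and proximal segments had medians of 0.019 and 0.050 with none past 2-fold.

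Some of these differences were read within the segment sets, whose cells need not be alike at both ages. In the proximal set Hes1 was 3.603-fold [3.22, 4.04] higher at P0 and in the distal set 2.08-fold [1.93, 2.24]. Dll1 was 1.72-fold [1.33, 2.23] lower in the proximal set, and in the distal set 1.46-fold [0.951, 2.28], an interval that holds 1. Nrarp was 2.68-fold [2.09, 3.48] lower in the proximal and 1.61-fold [1.11, 2.39] in the distal set. For Lfng both intervals held 1.

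Within the distal set Slc12a1 was 7.10-fold [5.23, 9.80] and Umod 27.5-fold [14.7, 58.0] higher at P0, and Tmem52b was 7.86-fold [6.53, 9.53] and Gata3 3.08-fold [2.26, 4.26] lower. Of the genes that helped choose this set, Mecom and Tfap2b were lower (479.9, 225 and 188 and 318, 147 and 99.1 CPM) and Irx1 and Irx2 higher (115, 205 and 329.6 and 64.2, 97.4 and 149 CPM). Cdkn1a was 5.64-fold [3.92, 8.31] higher in the distal set and 1.82-fold [1.49, 2.23] in the proximal set. The proliferation gene Mki67 was 2.13-fold [1.70, 2.70] lower in the proximal and 2.13-fold [1.70, 2.68] in the distal set. Epcam stood at 69.9952, 247 and 253 CPM in the proximal and 441, 537 and 718 CPM in the distal set.

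Of 9 early nephron genes, Bmp2 (3.08-fold [2.49, 3.83]) and Npy (3.83-fold [2.46, 6.16]) were past 2-fold higher at P0, and Greb1 (2.495-fold [1.86, 3.38]) and Dkk1 (2.44-fold [1.88, 3.19]) had the lowest ratios without passing. Fgf8 was 2.04-fold [1.70, 2.45] lower. Of 9 patterning factors 8 had ratios below 1 and 2 of these passed 2-fold, with a median of -0.80: Emx1 (6.74-fold [4.56, 10.3]) and Sall1 (2.59-fold [2.15, 3.13]) were past 2-fold lower, Hoxa11 was at -1.44 on the log2 scale, Sox11 at -0.15, and Sox4 was past 2-fold higher (2.87-fold [2.63, 3.13]). Of 17 adhesion genes the claudins Cldn3 (7.14-fold [5.45, 9.47]) and Cldn4 (6.55-fold [5.26, 8.25]) were past 2-fold higher, and the lowest were Cdh1 (-0.79) and Cdh4 (-0.41). The adhesion median was 0.28. Emx1 kept only 0 and 1 UMIs at 5000 UMIs per cell, too few for a direction.

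Of 18 cell cycle genes 17 had log2 ratios below 0 at P0, with a median of -0.64, the nearest to 0 being Ccnd2 at -0.01. The cyclins Ccne2 (5.44-fold [3.41, 9.11]) and Ccne1 (3.55-fold [2.52, 5.12]) were past 2-fold lower. The inhibitor Cdkn1a was the exception, at 133 CPM at P0 against 42.7 at E15.5 and past 2-fold higher (3.11-fold [2.66, 3.66]). The growth factor list had a median of -0.091 and the basement membrane list 0.19, with none past 2-fold in either. Their highest and lowest were Pdgfb (1.33), Erbb4 (1.05), Gdf11 (-0.93) and Igf2 (-0.72), and Itgb1 (0.63), Npnt (0.62), Nid2 (-0.35) and Itga6 (-0.28).

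Genes that respond to tissue dissociation were higher at P0 throughout: 17 of 17, of which 14 past 2-fold, with a median of 2.19. The heat shock gene Hspa1a was at 358 CPM at P0 against 3.47 at E15.5 and the stress factor Atf3 at 600.4 CPM at P0 against 7.96 at E15.5. Egr1 (0.94) and Fosb (1.13) had the lowest ratios. The list summed to 2384, 7023 and 10804 CPM in members and 4906, 11947 and 14769 in stroma, so it moved with the library in both kinds of cell. Its part in the other age differences was not tested. Reads of Hspa1a and its near copy Hspa1b may have been split in counting. Ureteric markers had no common direction in members: Wnt7b (4.62-fold [3.28, 6.66]) and Krt19 (5.84-fold [3.73, 9.55]) were past 2-fold higher and Aqp2 (4.72-fold [3.39, 6.72]) lower, with 50.2% of its E15.5 UMIs from 1 cell. Of 3 stromal genes with enough UMIs, Col1a1 (-2.70) and Col3a1 (-3.12) were past 2-fold lower, as were 4 of 4 globin genes. Crym (-0.68) and Cited1 (-0.46) of the progenitor list, Egfl7 (-0.37) and Ptprc (-0.49) were lower without passing. The part of these markers in the age differences was not tested.

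**Figure D5:**
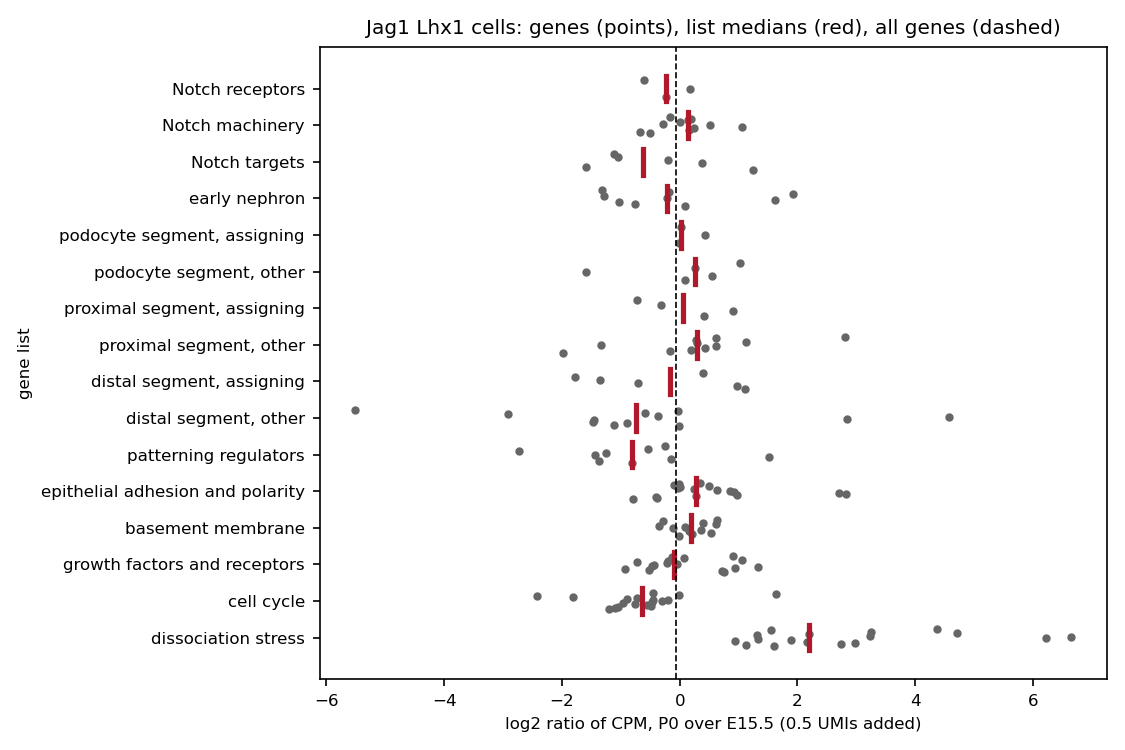
Log2 ratio of CPM at P0 over E15.5 in Jag1 Lhx1 cells (x axis) for the genes of each list (y axis). Points are genes with at least 50 UMIs over both libraries, red lines list medians, and the dashed line the median of all 9844 genes tested. Dissociation genes lie farthest to the right, with 17 of 17 above 0, and 17 of 18 cell cycle genes lie below 0.

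Genes past 2-fold were then ranked by the bound nearest 1, keeping those at least 2 times as high in members as in the other kept cells of the library where they were higher. The 6 highest at P0 were Ttr, Serpina6, Serpina10, Acta1, Ifit3 and Slc22a27. Ttr, the thyroid hormone carrier transthyretin, was at 0.612, 35.3 and 67.8 CPM, from 24 cells at P0 and 3 UMIs at E15.5, a ratio of 111 [37.6, 540.0]. Serpina6, Serpina10, Acta1 and Slc22a27 had 0 UMIs at E15.5 and were at least 42.3-, 40.2-, 33.2- and 28.2-fold higher, against a floor of 3 counts in that library (exact lower bounds 33.9, 32.2, 26.4 and 22.4). In Serpina6, 1 of 10 cells with UMIs gave 48.3% of the P0 UMIs, and in Acta1 34.0%. With likely doublets removed, the log2 ratio of Acta1 fell from 7.64 to 6.04. Ifit3, an interferon response gene, was at 0.204, 32.5 and 26.6 CPM, from 1 UMI at E15.5, with a ratio of 130.2 [22.9, 5183].

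The 6 lowest were Slc12a3, Rhcg, Mt2, Tmem52b, Aqp3 and Hsd11b2. Mt2, a metal-binding protein, was at 743, 32.5 and 98.9 CPM and 7.52-fold [6.82, 8.30] lower, with UMIs in 108 of the E15.5 members. Rhcg, an ammonia channel of the distal nephron, was at 34.3, 5.58 and 1.73 CPM, 19.8-fold [9.84, 46.7] lower. The water and glycerol channel Aqp3 was 8.54-fold [5.73, 13.2] lower, and Hsd11b2, which inactivates cortisol in aldosterone-responsive cells, 8.16-fold [5.58, 12.3] lower. Rhcg and Aqp3 came from 13 and 20 of the E15.5 members, and 1 cell gave 30.4% and 34.0% of their UMIs. Mt2 was thus spread over most E15.5 members, and the channels were carried by few.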

How the data were processed

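Single-cell RNA was counted in 4 mouse kidney libraries, 1 per group, and 3 (E15.5, E17.5, P0) entered the report. For 20672 genes, the authors deposited UMI counts by cell barcode. Per the submitters' processing notes Cell Ranger 3.1.0 and GRCm38 were used, and per the file headers the matrices came from version 3.0.2 (E15.5, P0) and 3.1.0 (E17.5, transplant). How strand and shared reads were counted is not given in the sources used here. The E15.5, E17.5, P0 and transplant libraries held 92387054, 42430540, 99068204 and 57855356 UMIs.

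From these counts, cells were kept at 500 genes and 20% mitochondrial UMIs and members taken by their UMIs. The members and gene lists were chosen with earlier results of these data known. UMIs were summed over cells and scaled to CPM. Log2 ratios had 0.5 UMIs added. Intervals came from scipy 1.17.1. Genes with 50 UMIs or more were compared, and "past 2-fold" means that the 95% bound nearest 1 lies beyond 2. With 1 library an age no p-value was computed. Stromal cells had at least 1 UMI of Pdgfra, 3 of Col3a1 and 0 of Epcam and Pecam1. Progenitors had at least 2 UMIs of Six2, 1 of Cited1 and 0 of Wnt4, Lhx1, Jag1 and the 4 genes that members lack. Doublets were scored with Scrublet (scanpy 1.11.5) and kept, and the highest scores, 0.8% per 1000 cells, were removed as an alternative. On simulated counts of 9844 genes for P0 against E15.5, 99% of genes set 4-fold higher and 81% set 4-fold lower passed 2-fold, and 0 unchanged genes. These were Poisson counts with no spread between cells, animals or preparations. They check the intervals for counting error only and cannot show how often real libraries would differ by other spread.

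Named are the limits' genes, genes of the Notch and segment lists, the 2 highest and 2 lowest of each other list, the 6 highest and lowest by the interval bound between ages, and the 10 highest and lowest against Wnt4-high cells. Rule, mitochondrial, ribosomal protein, globin, Xist, Y-linked, tdTomato and dissociation genes were left out of the named age genes. The split by Dll1, the globin sum without 1 cell and the leaving out of a library were added after seeing the data. A few genes of these lists are not reported here. Alternatives changed doublets, cell filters, the Jag1 limit, depth, scaling, the count filter and the list ratio.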

Additional observations from a re-analysis of the deposited data

Results flagged for a closer look

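The transplanted kidney, which the limits' 3 ages leave out, also held cells that met them: 158 of 6618 kept cells, or 2.39% [2.03, 2.78], where a count of 0 would allow at most 0.0453%. At 5000 UMIs per cell 19 remained, 0.484% [0.291, 0.754], and 2690 shallower cells were left out. These cells had Dll1 at 9.97 CPM, Lfng at 13.1, Fgf8 at 2.18 and Hes5 at 0. They differ from the other libraries in host, site and age, as E12.5 kidneys after 12 days as grafts. From the ICR libraries, E15.5 and P0, they differ in strain as well. These differences cannot be told apart.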

How the results depend on the processing

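Removing likely doublets, at most 10% mitochondrial UMIs, at least 1000 genes per cell, dividing ratios by their median and averaging over cells turned no list median and kept the shares within their intervals and the counts of genes within 1.5 times. The Notch target median moved from -0.62 to -0.17 with doublets removed and to -0.087 without the count filter. With at least 3 Jag1 UMIs the shares were 2.61%, 1.03% and 1.85% and 53 genes were higher than in Wnt4-high cells. Without the count filter 169 were. Leaving out each library in turn, an alternative chosen after seeing the data, gave 101 to 254 higher and 25 to 86 lower. A gene then had to pass in fewer libraries, and the numbers of genes tested are not given. With a list leading at any margin, 0%, 2.35% and 1.70% of members had no leading list, and at 2 times the next 23.0% at P0 did.

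Depth is the main limit. At 5000 UMIs per cell 36, 47 and 82 cells met the limits, 1721 genes could be compared between ages and 2199 with Wnt4-high cells, and fewer genes were past 2-fold by construction: 50 higher and 6 lower at P0, and 1 higher and 0 lower than in Wnt4-high cells. The shares became 1.07%, 1.37% and 1.24%. At E15.5 the proximal, distal and no-list shares became 27.8%, 30.6% and 33.3%, and at P0 the podocyte, distal and no-list shares 13.4%, 29.3% and 25.6%. List medians turned sign for Notch machinery (-0.29, from 1 gene), Notch targets (1.23, from Hes1 and Hey1) and growth factors (0.19, from 5). They moved to -0.065 for early nephron, -0.17 for patterning, 1.10 for adhesion and 2.03 for dissociation genes. Of 390 single-gene values 350 kept their direction and side of 2-fold and 3 turned, all at 5000 UMIs: Slc12a3 (1.62, from 0 and 3 UMIs), Slc12a1 (-0.12, from 5 and 11) and Emx1 (0.40, from 0 and 1). No paired analysis was possible because each age is 1 library.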
